A study of Mus musculus with 30 samples.

Results

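This account covers 52 cell cycle genes in astrocytes sorted from the brains of mice after experimental stroke or systemic inflammation. The genes were taken from a list of names, 30 that act in mitosis, 15 that act in S phase, 4 D-type and E-type cyclins and 3 inhibitors of cyclin-dependent kinases. Probe sets of the expression array named 51 of them, and none carried the symbol of Ccnb1, which encodes cyclin B1. Of these 51 genes, 50 were tested among 15726 genes, and 18193 genes were measured in all. Tyms, which encodes thymidylate synthase, was set aside because its log2 intensity was between 4.09 and 4.75 on the 30 arrays, below the minimum of 5 on at least 3 arrays.

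All mice were young adult males on a Swiss Webster background, and carried the Tg(Aldh1l1-eGFP) OFC789Gsat transgene, which places green fluorescent protein under control sequences of Aldh1l1. Brains were digested with papain, and fluorescent cells were collected by flow cytometry and labelled as astrocytes. Stroke was produced by occluding the middle cerebral artery for 1 hour and letting blood return (MCAO), and sham surgery served as its control. Astrocytes were collected at 1 day from 5 MCAO and 4 sham samples, and at 3 and at 7 days from 3 MCAO and 3 sham samples each. Lipopolysaccharide (LPS), a bacterial endotoxin, was injected into the abdomen at 5 mg/kg, and 5 LPS and 4 saline samples were collected at 1 day. Each sample was hybridised to 1 array. The titles call the samples biological replicates without saying whether 1 mouse or a pool gave each, and a p-value here reflects how far such samples scatter, which may be technical in part.

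Cells that divide pass through a gap phase, G1, copy their DNA in S phase and separate the copies in mitosis. D-type cyclins with Cdk4 or Cdk6 release E2F transcription factors from the retinoblastoma protein, and E2F then activates genes of replication licensing and nucleotide supply. A later wave of genes, which encode cyclins A and B, Cdk1, kinetochore proteins and motors of the spindle, is switched on towards mitosis through paired promoter elements. Cdkn1a and Cdkn1b encode inhibitors that hold Cdk complexes in check, and Cdkn1a is a classic target of p53. Astrocytes of the healthy adult brain rarely divide, and some re-enter the cycle around an injury.

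Promoter sequence differed between the roles. RefSeq windows of GRCm38.p6, running from 250 bases before to 50 bases after an annotated start, were at hand for 43 of the 52 genes. The letters TTTGAA, known as the cell cycle genes homology region (CHR), were found on either strand in 19 of 26 mitosis genes (73.1%) and in 1 of 13 S phase genes (7.69%), against 20.2% of 27025 genes. CCAAT stood in 22 of 26 mitosis genes (84.6%) and 8 of 13 S phase genes (61.5%), against 41.1% of all genes. The mitosis genes with both motifs numbered 18 of 26 (69.2%), against 8.97% of all genes. As an E2F site, the letters TTTCCCGC, TTTGGCGC and TTTCGCGC were searched on both strands, and at least 1 occurred in 6 of 13 S phase genes (46.2%) and 1 of 26 mitosis genes (3.85%), against 2.12% of all genes. E2F matches on opposite strands can share bases. A match gives letters in a window and no evidence of binding.

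The 160 bases before the start are printed for 4 mitosis genes and 2 S phase genes, with every match of the 3 motif families in capitals, because they show the difference in layout. All run 5' to 3' on the strand of the gene. Cdc20 (chr4:118437344-118437503, minus strand), Cdk1 (chr10:69352913-69353072, minus strand), Ube2c (chr2:164769769-164769928, plus strand) and Top2a (chr11:99024190-99024349, minus strand) have a CHR close to the start with CCAAT or its complement ATTGG upstream. Mcm5 (chr8:75109349-75109508, plus strand) and Mcm6 (chr1:128359706-128359865, minus strand) have E2F letters and no CHR.
Cdc20: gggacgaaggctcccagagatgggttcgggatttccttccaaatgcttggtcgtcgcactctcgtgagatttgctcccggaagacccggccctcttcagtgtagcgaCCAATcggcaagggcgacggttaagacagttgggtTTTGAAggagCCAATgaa
Cdk1: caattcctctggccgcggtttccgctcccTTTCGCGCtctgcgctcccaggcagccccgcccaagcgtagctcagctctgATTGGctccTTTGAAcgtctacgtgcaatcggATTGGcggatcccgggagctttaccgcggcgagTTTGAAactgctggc
Ube2c: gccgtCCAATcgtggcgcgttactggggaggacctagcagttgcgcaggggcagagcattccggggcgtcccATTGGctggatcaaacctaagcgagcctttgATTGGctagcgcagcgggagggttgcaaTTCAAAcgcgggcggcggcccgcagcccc
Top2a: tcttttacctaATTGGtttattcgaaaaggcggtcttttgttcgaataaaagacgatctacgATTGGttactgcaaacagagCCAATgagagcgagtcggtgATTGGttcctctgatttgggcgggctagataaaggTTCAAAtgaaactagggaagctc
Mcm5: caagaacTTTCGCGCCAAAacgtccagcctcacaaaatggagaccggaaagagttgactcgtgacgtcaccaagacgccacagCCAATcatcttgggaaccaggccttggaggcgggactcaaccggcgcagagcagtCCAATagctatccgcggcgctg
Mcm6: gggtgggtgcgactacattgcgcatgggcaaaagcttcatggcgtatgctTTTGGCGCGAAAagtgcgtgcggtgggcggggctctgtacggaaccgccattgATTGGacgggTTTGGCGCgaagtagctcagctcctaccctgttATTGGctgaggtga
The first base of the CHR lay 18 bases before the start in Cdc20, 15 in Cdk1, 29 in Ube2c and 23 in Top2a. Of the 9 mitosis genes that passed the test at 3 days, described further on, 7 held a CHR and 8 held CCAAT.

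The mean log2 intensity of 12 astrocyte markers was between 12.38 and 13.55 on the 30 arrays. The lowest of these values was on array 5 of LPS, whose median intensity over all probe sets was 94 against 68 to 73 on the other 29 arrays. That of 13 microglia and macrophage markers was between 5.52 and 6.73. Markers of oligodendrocyte precursors, which divide in the adult brain, varied more, and stood apart on 1 sham array of 3 days. Their values are given beside the results they moved with. The 3-day groups were split by array: array 3 of sham and array 3 of MCAO had list means unlike arrays 1 and 2 of their own groups, so results at 3 days are given with and without that pair.

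**Figure D1:**
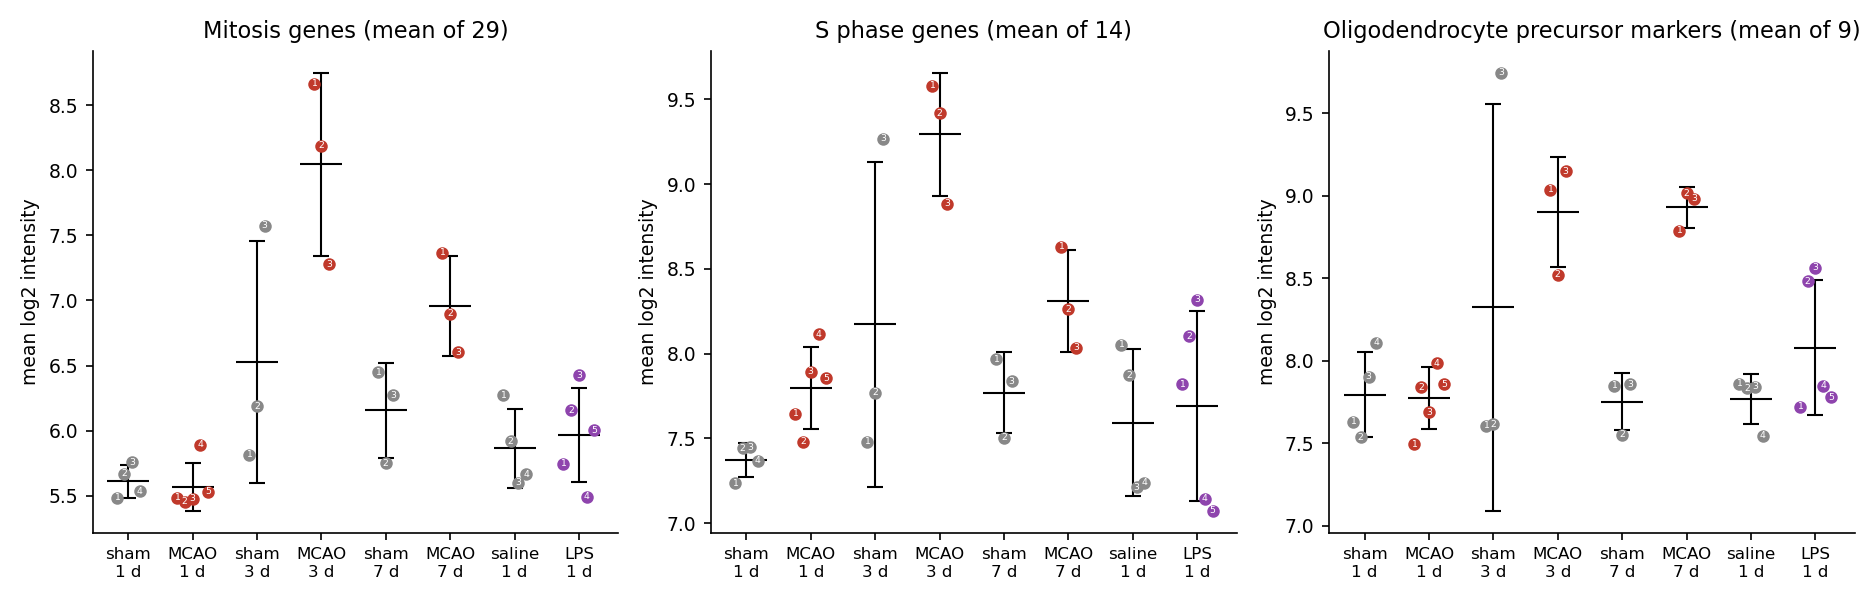
Mean log2 intensity per array (numbered points) of the 29 mitosis genes, the 14 S phase genes and 9 oligodendrocyte precursor markers in the 8 groups, with the group mean and SD (bars). The mitosis mean was between 5.45 and 5.89 on all 9 arrays of surgery at 1 day, and 8.67, 8.19 and 7.28 on the MCAO arrays of 3 days.

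One day after stroke, 3 of 50 members were higher and 0 lower at an adjusted p under 0.05. Over all genes 6.49% were higher and 6.17% lower, so the share of members called higher was no larger than that of genes at large. The 3 were Cdkn1a, Cdt1 and Ccnd1, which encode a Cdk inhibitor, a factor that licenses replication origins and cyclin D1. None of the 29 mitosis genes passed, and none reached even an unadjusted p under 0.05, against 23.3% of all genes. Their log2 differences had a median of -0.08 and ran from -0.36 to 0.40, and the median of all genes was -0.05. The lowest were Mki67, the common proliferation marker (-0.36 ± 0.54, adjusted p 0.833), and Anln, a scaffold of the cleavage furrow (-0.30 ± 0.53, 0.871). The highest were Nusap1, a microtubule-bundling protein of the spindle (0.40 ± 0.42, 0.708), and Prc1 (0.40 ± 0.25, 0.388). Top2a had 0.03 ± 0.51 (0.993) and Cdk1 -0.06 ± 0.41 (0.981). The S phase genes had a median of 0.41, with 1 of 14 called.

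Log2 intensities of Cdkn1a at 1 day were 8.85, 10.09, 11.83 and 9.12 on the sham arrays and 13.28, 12.03, 12.27, 12.56 and 12.52 on the MCAO arrays. All MCAO arrays lay above all sham arrays, and sham array 3 was close to the lowest of them. Sham array 3 and MCAO array 4 also had the highest means of endothelial markers among the surgery arrays of 1 day (8.57 and 8.94, against 6.64 to 7.75) and of neuronal markers (9.19 and 8.91, against 7.51 to 7.80). Neutrophil and monocyte markers did not overlap between the groups (5.55 to 5.67 on sham, 5.73 to 5.87 on MCAO arrays), and 2 of 9 were higher, S100a8 (0.87 ± 0.29, adjusted p 0.0469) and Il1r2 (0.87 ± 0.17, 0.000707). Of 13 microglia and macrophage markers Cd68 was higher (1.98 ± 0.26, adjusted p 9.14e-06), of 9 neural progenitor markers Nes (1.96 ± 0.28, 1.94e-05) and Cd24a (2.64 ± 0.66, 0.00692), of 7 pericyte and smooth muscle markers Tagln (1.53 ± 0.39, 0.00891), and of 11 endothelial markers Vwf (1.57 ± 0.51, 0.0395). Lower were the oligodendrocyte markers Cnp (-0.69 ± 0.20, adjusted p 0.0195) and Aspa (-1.17 ± 0.31, 0.0105) and the precursor marker Cacng4 (-1.12 ± 0.30, 0.012). The astrocyte mean was 13.35 to 13.46 on sham and 13.14 to 13.33 on MCAO arrays. Of 12 astrocyte markers Gfap was higher (1.69 ± 0.40, adjusted p 0.00486), and Slc1a3 (-0.52 ± 0.15, 0.0165) and Gjb6 (-0.63 ± 0.16, 0.00782) were lower. Over all genes 6.49% were higher and 6.17% lower at 1 day, and 1 call in a list of 13 or of 11 is close to that share. The part of other cell types in the 1-day results was not tested. The difference of Cdkn1a was 2.56 ± 0.47 (SE), or 5.89-fold, with an adjusted p of 0.000403. A second probe set of Cdkn1a gave 2.79.

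For Cdt1 the sham arrays read 5.58, 5.98, 6.30 and 5.86 and the MCAO arrays 8.63, 8.18, 8.34, 8.48 and 8.51. The groups lay far apart, with little spread inside either. Cdt1 was higher by 2.50 ± 0.50 (5.64-fold, adjusted p 0.00109), and the other probe set above the minimum gave 1.51. Ccnd1 read 8.26, 7.93, 8.87 and 8.49 on sham arrays and 10.80, 10.63, 10.30, 10.95 and 10.28 on MCAO arrays, again without overlap. It was higher by 2.21 ± 0.60 (4.61-fold, adjusted p 0.0139), and 2 further probe sets gave 2.01 and 2.05. Without sham array 2 the adjusted p of Ccnd1 was 0.0532, and the call was lost. In these bulk samples a change in the share of cells that express a gene and a change in RNA per cell cannot be told apart.

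**Figure D2:**
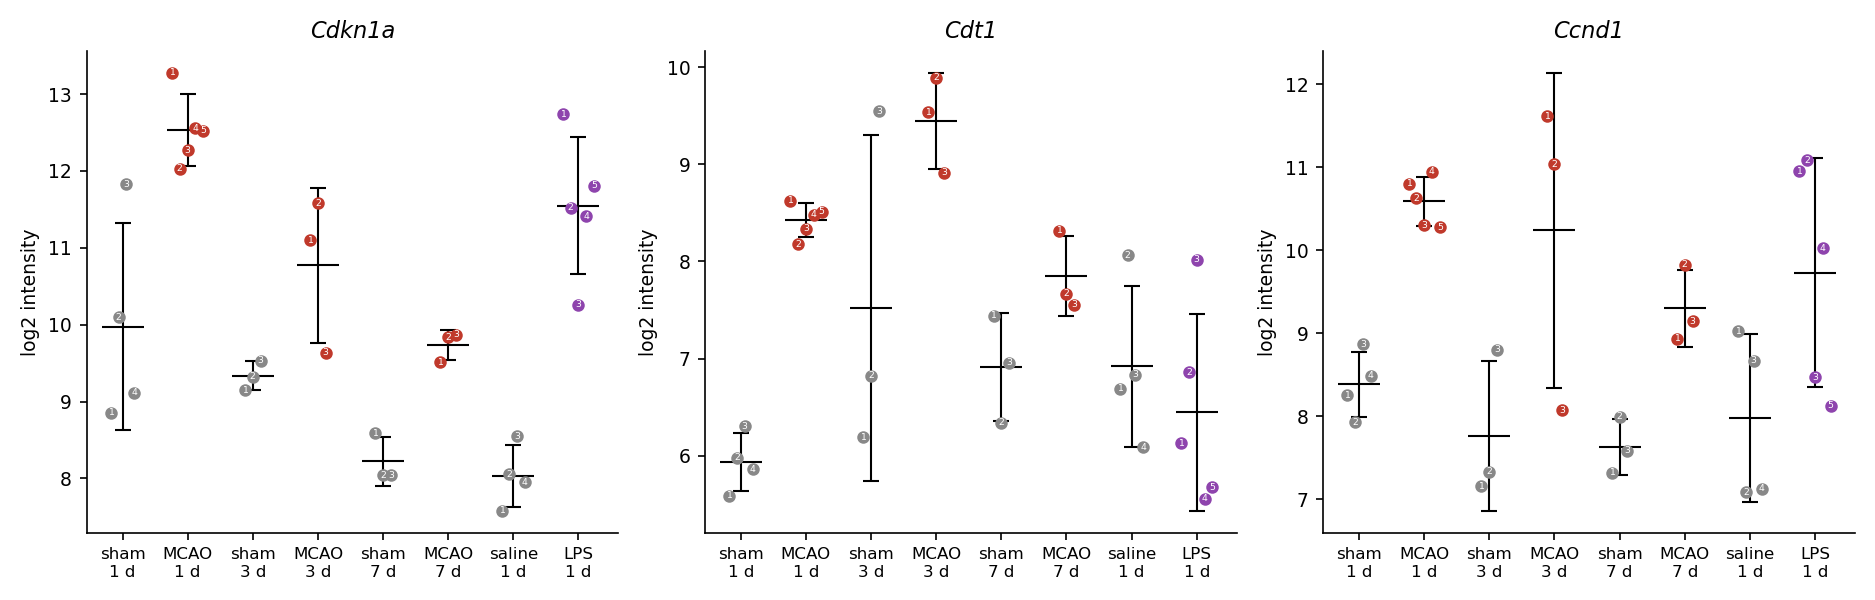
Log2 intensity per array (numbered points) of Cdkn1a, Cdt1 and Ccnd1 in the 8 groups, with the group mean and SD. At 1 day all 5 MCAO arrays lie above all 4 sham arrays for each gene, and Cdkn1a is also higher on all 5 LPS arrays than on the 4 saline arrays.

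Of the 14 S phase genes 10 had a difference above 0 at 1 day, against 41.6% of all genes, and Rrm1, Rrm2, Tk1 and E2f1 were below 0. Apart from Cdt1 none passed the test. Mcm6, a subunit of the replicative helicase, read 6.66, 6.77, 7.22 and 6.79 on sham arrays and 7.42, 7.46, 7.85, 8.65 and 7.78 on MCAO arrays, with no overlap (0.97 ± 0.51, adjusted p 0.264). Mcm5 gave 0.91 ± 0.42 (adjusted p 0.184), Mcm2 0.40 ± 0.28 (0.462) and Pcna, the sliding clamp of DNA polymerase, 0.69 ± 0.37 (0.280). Rrm2, the regulated subunit of ribonucleotide reductase, had the lowest difference of the list at -0.80 ± 0.50 (adjusted p 0.384). Ccnd2, which encodes cyclin D2, was 10.42 to 10.45 on sham arrays and 10.67 to 11.38 on MCAO arrays (0.56 ± 0.23, adjusted p 0.124). The genes of cyclins E1 and E2 had 0.02 ± 0.31 (Ccne1, 0.993) and -0.04 ± 0.20 (Ccne2, 0.968).

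In 7 of 50 members every MCAO array lay above every sham array, against 12.1% of all genes, and in 3 every MCAO array lay below. These were E2f1, with -0.34 ± 0.17 (adjusted p 0.214), Cdkn1b, with -0.65 ± 0.47 (0.489), and Cdkn2c, which encodes an inhibitor of Cdk4 and Cdk6, with -0.61 ± 0.33 (0.279). Over all genes, 15.2% had MCAO wholly below sham. Cdkn1b read 8.99, 9.17, 8.93 and 9.20 on sham arrays and 7.92, 8.17, 8.74, 8.57 and 8.72 on MCAO arrays. The sample numbers in the description field were taken to pair the 1-day surgery arrays. With that number as a block Cdkn1b was lower by 0.52 with an adjusted p of 0.00829. It was also called with the title number as a block, which did not pair the arrays (-0.72, adjusted p 0.0227). Fitted on the 1-day surgery arrays alone it was called too (-0.65, adjusted p 0.0157), so the call did not depend on that pairing. The SE of 0.47 in the main fit also took in LPS array 5, where Cdkn1b read 5.13. Each of these other fits left that reading out of the spread, as neither block gave LPS array 5 a partner. A gain from pairing can therefore not be read from these calls. The block by description number also left MCAO array 1 (7.92), which has no sham partner, out of the difference.

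The spread used in these tests was shared over all 8 groups. Fitted on the 9 surgery arrays of 1 day alone, 10 members were higher and 3 lower, against 14.6% of all genes higher and 18.4% lower. The 10 were Cdkn1a, Cdt1, Ccnd1, Ccnd2, Mcm2, Mcm5, Mcm6, Mcm7, Pcna and Nusap1, and the 3 lower were E2f1, Cdkn1b and Cdkn2c. Of the 29 mitosis genes only Nusap1 was among them, with 0.40 (adjusted p 0.0437).

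Further genes of the cycle, listed by textbook role, were also tested at 1 day, where 6.49% of all genes were higher and 6.17% lower. Among 19 other genes of G1 and of the Rb and E2F system, 3 were higher and 0 lower. Cdk6, a partner of D-type cyclins, was higher by 2.52 ± 0.37 (adjusted p 2.84e-05), Myc, a transcription factor that promotes growth, by 1.35 ± 0.26 (0.000742), and Cdk4 by 0.56 ± 0.19 (0.0490). Of 33 other S phase genes 1 was higher and 1 lower, and Pole2, a DNA polymerase subunit, was higher by 0.94 ± 0.27 (adjusted p 0.0179). Of 39 other mitosis genes 2 were higher and 2 lower, no larger a share than of all genes. The kinesin Kif18a was higher by 2.0 ± 0.31 (adjusted p 6.81e-05), and the condensin subunit Ncapd2 was lower by 1.07 ± 0.29 (adjusted p 0.0142).

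Targets of p53 were listed because Cdkn1a is one. Of 19 other targets tested at 1 day, 9 were higher and 1 lower, against 6.49% of all genes higher and 6.17% lower. Their median was 0.67. Eda2r, a death-domain receptor, was higher by 3.48 ± 0.34 (adjusted p 1.12e-07), Gadd45a, a DNA damage response gene, by 2.77 ± 0.63 (0.00330), and Fas, a death receptor, by 1.59 ± 0.37 (0.00367). Sesn1, a sestrin, was lower with -0.97 ± 0.27 (adjusted p 0.0156).

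At 3 days the members that passed the test in the main fit were genes of mitosis. Some alternative fits of all arrays also called S phase genes. With the mean of the probe sets of each gene, Mcm5 (adjusted p 0.0357) and Rrm2 (0.0376) were among those called. Of 50 members, 9 were higher and 0 lower, against 0.61% of all genes higher and 0.0636% lower, and all 9 were mitosis genes. The mitosis genes had a median log2 difference of 1.55, and 28 of 29 were above 0. The 14 S phase genes had a median of 0.92, all of them above 0, and 0 of 14 passed, with 9 of 14 at an unadjusted p under 0.05, against 9.53% of all genes. The median of all genes was 0.01, and 51.8% of them were above 0. In 10 of 50 members every MCAO array lay above every sham array, against 5.74% of all genes.

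Hmmr, a receptor for hyaluronan that also binds the mitotic spindle, read 5.36, 5.46 and 5.86 on the sham arrays of 3 days and 9.09, 7.98 and 6.38 on the MCAO arrays. No MCAO array overlapped sham, although the 3 MCAO arrays differed among themselves by more than the sham arrays did. Its difference was 2.26 ± 0.37 (4.78-fold, adjusted p 0.00355). The 4 other probe sets of Hmmr, dimmer and at log2 5 on at most 13 arrays, gave 1.23, 0.28, 1.63 and 0.39, and the mean over all its probe sets 1.16. Prc1, which bundles microtubules between the separating chromosomes, read 7.10, 7.53 and 8.31 on sham and 10.06, 9.69 and 8.81 on MCAO arrays, also without overlap. It was higher by 1.87 ± 0.30 (3.66-fold, adjusted p 0.00355), and its other probe set gave 1.83.

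Ect2, an exchange factor that starts the cleavage furrow, read 4.75, 4.81 and 7.21 on sham and 8.24, 7.89 and 7.50 on MCAO arrays. Sham array 3 came close to the lowest MCAO array. The difference was 2.29 ± 0.44 (4.88-fold, adjusted p 0.0132). Cdk1, the kinase that drives entry into mitosis, read 6.07, 6.74 and 8.19 on sham and 9.97, 9.65 and 7.73 on MCAO arrays, so that sham array 3 stood above MCAO array 3. It was higher by 2.12 ± 0.49 (4.34-fold, adjusted p 0.0389).

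Regulators of the anaphase-promoting complex were among the 9. Cdc20, its activator, read 6.89, 7.63 and 9.19 on sham and 10.87, 10.20 and 9.30 on MCAO arrays (2.22 ± 0.52, 4.65-fold, adjusted p 0.0411). Ube2c, the ubiquitin-conjugating enzyme that works with it, read 4.86, 5.78 and 7.58 on sham and 8.25, 8.18 and 7.83 on MCAO arrays (2.01 ± 0.45, 4.04-fold, adjusted p 0.0335). For both genes the groups were separated, narrowly at array 3. The 2 other probe sets of Cdc20 gave 1.77 and 0.89, and its call was lost without probe sets marked as shared (adjusted p 0.0662).

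The remaining 3 were spindle checkpoint and chromosome passenger genes. Bub1, a checkpoint kinase, read 4.70, 5.04 and 6.55 on sham and 8.08, 7.35 and 6.67 on MCAO arrays, Birc5, which encodes survivin, 5.75, 6.04 and 7.72 against 8.76, 8.48 and 7.43, and Ttk, a second checkpoint kinase, 4.81, 4.81 and 6.02 against 7.03, 6.44 and 5.78. Bub1 was higher by 1.93 ± 0.45 (adjusted p 0.0373), Birc5 by 1.72 ± 0.40 (0.0366), and Ttk by 1.21 ± 0.29 (0.0491). The call of Ttk was lost with the mean of its probe sets (0.66, adjusted p 0.0848). For Birc5 and Ttk sham array 3 overlapped the MCAO arrays.

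Markers in wide use for proliferation did not pass. Mki67 read 6.86, 7.31 and 10.13 on sham and 10.25, 9.55 and 9.96 on MCAO arrays, with a difference of 1.82 ± 0.66 (adjusted p 0.256). Sham array 3 lay inside the MCAO range. Top2a, the topoisomerase that untangles sister chromosomes, read 6.73, 7.87 and 9.62 against 10.48, 10.29 and 8.95 (1.83 ± 0.62, adjusted p 0.211). The smallest mitosis differences were those of Tpx2 (-0.03) and Kif11 (0.23), a spindle assembly factor and a spindle motor. Probe sets disagreed for both: the 3 others of Tpx2 gave 1.73, 1.68 and 0.06, and 2 others of Kif11 gave 1.17 and 0.73.

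Among S phase genes Rrm2 came nearest at 3 days. It read 7.03, 7.47 and 9.91 on sham and 11.31, 10.62 and 9.91 on MCAO arrays, equal on array 3, with 2.48 ± 0.61 (5.57-fold, adjusted p 0.0536). Cdt1 had 1.93 ± 0.61 (adjusted p 0.169), Mcm2 0.77 ± 0.34 (0.436) and Pcna 0.26 ± 0.45 (0.999). Mcm5 had 1.93 ± 0.51 (0.0804), and the smallest besides Pcna was E2f1, with 0.29 ± 0.20 (0.817). Ccnd1 varied between arrays and overlapped: it read 7.16, 7.33 and 8.80 on sham and 11.61, 11.04 and 8.08 on MCAO arrays (2.48 ± 0.73, adjusted p 0.130). Ccnd2 had 0.29 ± 0.28 (adjusted p 0.936), Ccne1 0.76 ± 0.37 (0.524) and Ccne2 0.44 ± 0.24 (0.632). For the inhibitors, Cdkn1a had 1.44 ± 0.57 (adjusted p 0.334), Cdkn2c 0.78 ± 0.40 (0.568) and Cdkn1b -0.09 ± 0.57 (0.999).

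**Figure D3:**
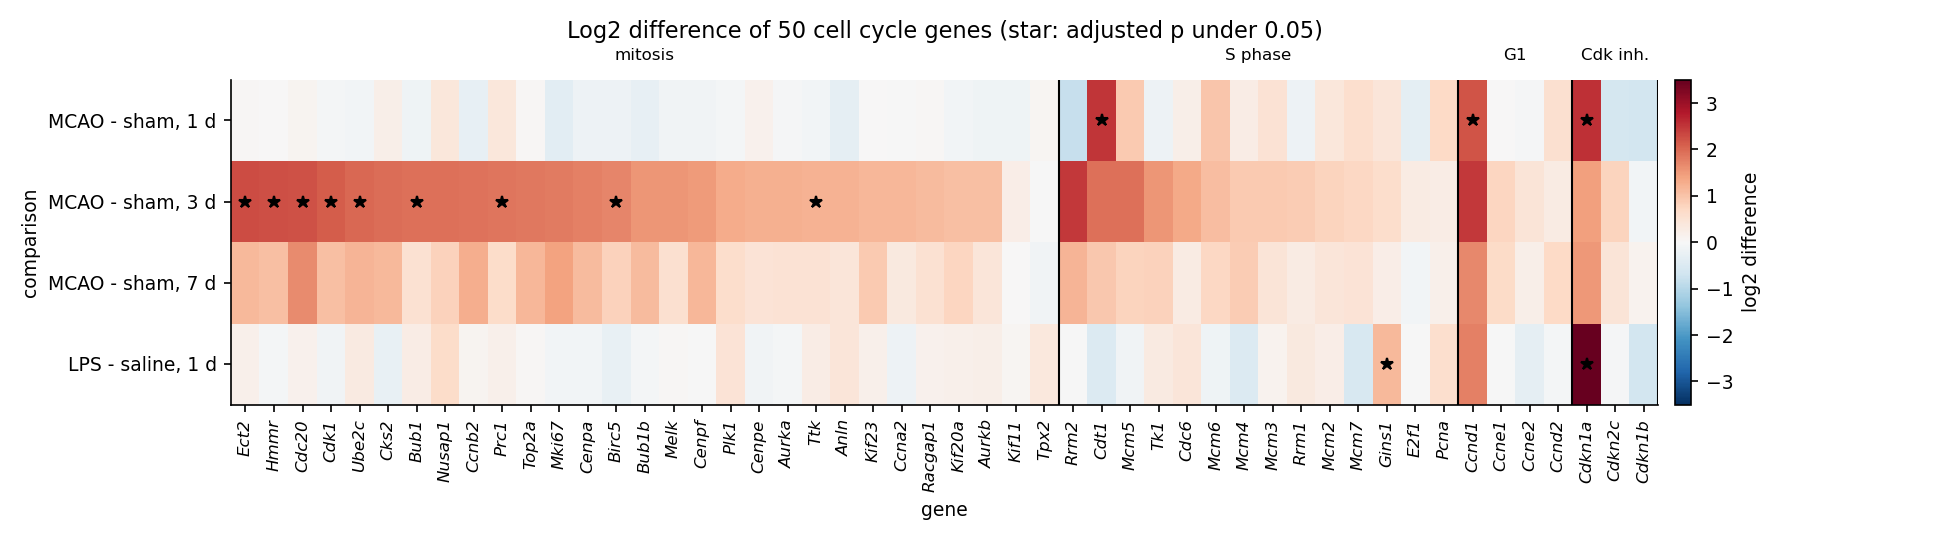
Log2 difference (colour) of the 50 tested members in the 4 comparisons, ordered within each role by the 3-day difference, with a star where the adjusted p was under 0.05. Stars fall on Cdt1, Ccnd1 and Cdkn1a at 1 day after MCAO, on 9 mitosis genes at 3 days and on Gins1 and Cdkn1a after LPS.

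Array 3 of each group stood apart at 3 days. Mean log2 intensity of the mitosis genes was 5.82, 6.19 and 7.58 on the sham arrays and 8.67, 8.19 and 7.28 on the MCAO arrays. That of the S phase genes was 7.48, 7.77 and 9.27 on sham and 9.58, 9.42 and 8.88 on MCAO arrays. Sham array 3 was therefore above MCAO array 3 in both lists. Between these arrays the median difference was -0.31 in mitosis genes and -0.40 in S phase genes, and 34 of 50 members were lower in MCAO, against 7822 of 15726 genes. Array 3 of both groups belonged to a set of 16 arrays with a higher 95th percentile of log2 intensity (11.88 to 12.15). Arrays 1 and 2 of both groups belonged to the 14 with a lower one (11.57 to 11.80). With the set as a covariate 12 of 50 members were higher at 3 days, against 0.814% of all genes. Those added to the main calls were Cenpa (1.76, adjusted p 0.0324) and the S phase genes Mcm5 (1.93, 0.011) and Rrm2 (2.48, 0.0176).

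Array 3 was the highest sham array and the lowest MCAO array for both cycle lists, so leaving it out widens their differences by itself. The omission was chosen from these list means. The adjusted p-values that follow describe arrays 1 and 2 of each group and are no independent test. Without array 3 of both groups, 37 of 50 members were higher and 0 lower, against 3.07% of all genes higher and 0.947% lower. The 37 were 26 of 29 mitosis genes, 10 of 14 S phase genes and Ccnd1. In 46 of 50 members both MCAO arrays lay above both sham arrays, against 26% of all genes. Median differences were 2.72 in the mitosis genes and 1.76 in the S phase genes, against 1.55 and 0.92 with all arrays. Ccnd1 was higher by 4.08 ± 0.72 (16.9-fold, adjusted p 0.000909) and Rrm2 by 3.72 ± 0.62 (13.1-fold, adjusted p 0.000466). Cdk1 was higher by 3.40 ± 0.44 (10.6-fold, adjusted p 2.25e-05), Top2a by 3.09 ± 0.66 (adjusted p 0.00542) and Mki67 by 2.82 ± 0.67 (adjusted p 0.0151). The 3 mitosis genes not past the test were Tpx2, Kif11 and Anln, and the 4 S phase genes were Mcm4, Mcm7, Pcna and E2f1. None of the 3 Cdk inhibitors passed, with Cdkn1a at 2.10 ± 0.66 (adjusted p 0.0811).

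Single arrays decided the count in both directions. It was 0 without sham array 1 or sham array 2, and 2 without MCAO array 1 or MCAO array 2. It was 29 without MCAO array 3 and 33 without sham array 3. The share of all genes called was not taken for these omissions, so the counts cannot be read as particular to the members. Fitted on the 6 arrays of 3 days alone, the count was 0 of 50, as it was for all genes. Of the 50, 28 were at an unadjusted p under 0.05, against 9.23% of all genes.

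**Figure D4:**
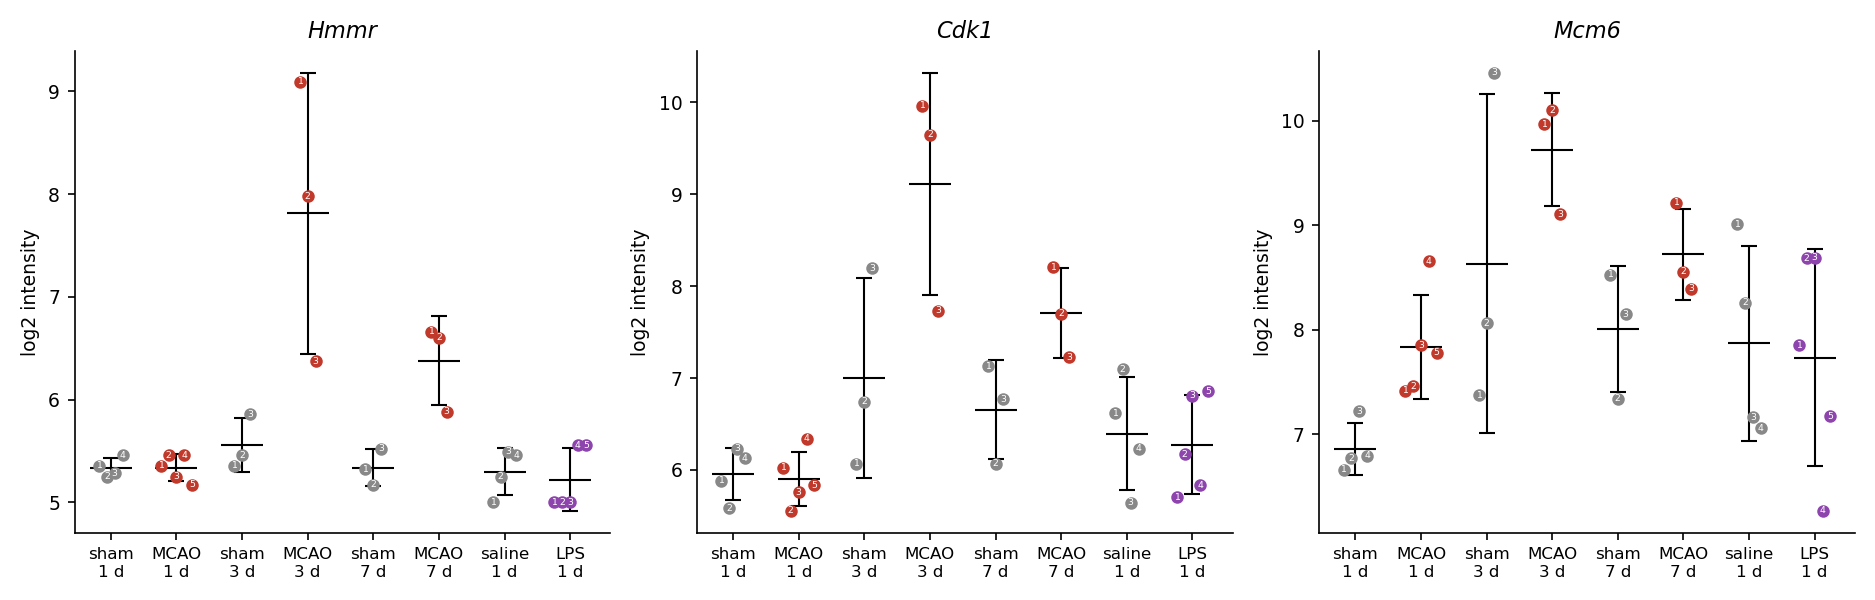
Log2 intensity per array (numbered points) of Hmmr, Cdk1 and Mcm6 in the 8 groups, with the group mean and SD. At 3 days sham array 3 reads 5.86 for Hmmr, near the other sham arrays, and 8.19 for Cdk1 and 10.46 for Mcm6, above MCAO array 3.

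**Figure D5:**
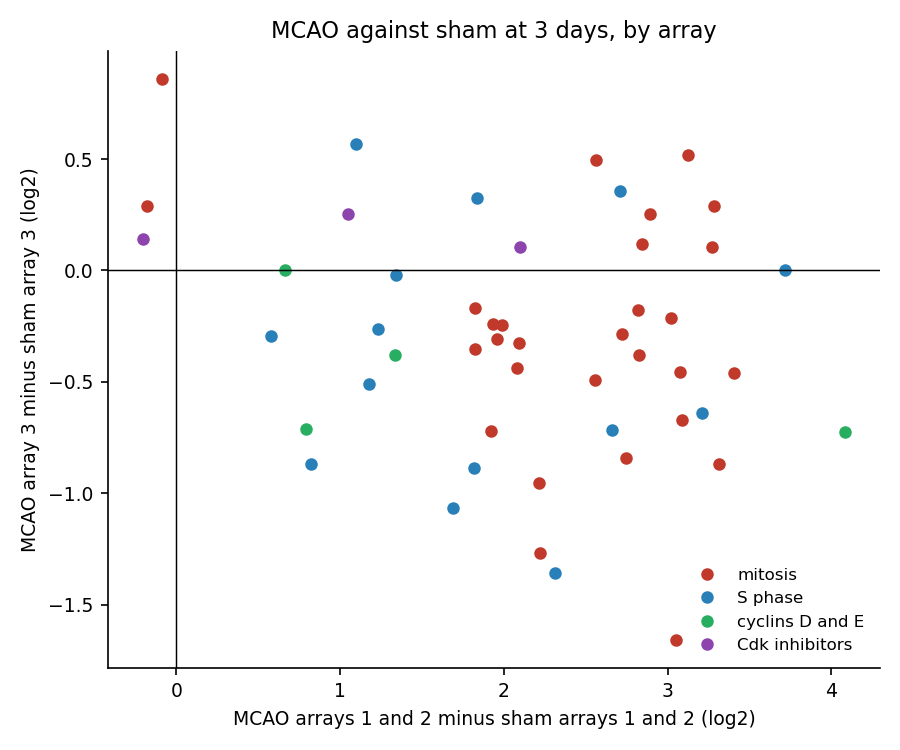
Each point is 1 of the 50 tested members at 3 days, with the MCAO minus sham difference on arrays 1 and 2 (x axis, log2) against that between array 3 of each group (y axis, log2). Most points lie right of 0 on the x axis, with role medians of 2.72 (mitosis) and 1.76 (S phase), and 34 of 50 lie below 0 on the y axis.

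Levels of oligodendrocyte precursor markers also differed between the arrays of 3 days. Their mean over 9 genes was 7.60, 7.62 and 9.75 on the sham arrays and 9.04, 8.52 and 9.15 on the MCAO arrays, against 7.49 to 8.11 on the 9 surgery arrays of 1 day. Pdgfra, the growth factor receptor of these cells, read 7.35, 6.60 and 11.82 on sham and 10.30, 10.12 and 10.96 on MCAO arrays. Gpr17, a marker of committed precursors, read 5.75, 5.55 and 10.01 on sham and 8.17, 6.17 and 8.58 on MCAO arrays. None of the 9 markers passed at 3 days. The highest array for the precursor markers, sham array 3, was the highest sham array for both cycle lists, while among MCAO arrays the highest precursor mean (array 3) went with the lowest mitosis mean. For Hmmr the value of sham array 3 was close to those of the other sham arrays. The means of fibroblast markers (8.05, 7.82 and 9.38 on sham arrays, 6.78, 9.16 and 9.12 on MCAO arrays) and of neural progenitor markers (7.46, 7.60 and 8.76, and 7.96, 8.20 and 8.36) were also highest on sham array 3. Of 9 progenitor markers Nes, which encodes nestin, was higher (1.51 ± 0.34, adjusted p 0.0327). Mature oligodendrocyte markers read 7.21, 7.10 and 9.42 on sham and 9.92, 8.38 and 8.38 on MCAO arrays, highest on sham array 3 and MCAO array 1 of their groups, as the mitosis mean was. Markers of pericytes and smooth muscle did not overlap (7.20, 7.14 and 7.67 on sham, 7.78, 8.47 and 7.78 on MCAO arrays), and 1 of 7, the actin-binding Tagln, was higher (2.46 ± 0.48, adjusted p 0.0147). Endothelial markers (5.78 to 5.98 on sham, 6.09 to 6.34 on MCAO arrays) and neutrophil and monocyte markers (5.49 to 5.56, and 5.60 to 5.83) did not overlap either, with none called. Over all genes 0.61% were higher at 3 days. The part of these cell types in the result was not tested.

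Further genes of the cycle were tested at 3 days too, where 0.61% of all genes were higher. Of 39 other mitosis genes, 5 were higher and 0 lower, with a median of 0.77. Spc25, a kinetochore subunit, was higher by 2.39 ± 0.34 (adjusted p 0.00107), Ckap2, a spindle protein, by 1.85 ± 0.38 (0.0202), and Cdca3, which triggers entry into mitosis, by 1.83 ± 0.38 (0.0202). None of 33 other S phase genes passed, and their median was 0.51. Cdkn3, a phosphatase that acts on Cdk complexes, was higher by 1.32 ± 0.21 (adjusted p 0.00355), 1 of 4 other genes listed as Cdk inhibitors. Of 19 p53 targets only Phlda3 was higher, by 1.20 ± 0.28 (adjusted p 0.0419).

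By 7 days no member passed the test. None of 50 was higher or lower, against 0.0254% of all genes higher, while 14 were at an unadjusted p under 0.05, against 2.62%, and 48 of 50 differences were above 0, against 48.8%. Median differences were 0.80 in mitosis genes, 0.46 in S phase genes and 0.68 in the D-type and E-type cyclins, against -0.01 over all genes. In 28 of 50 members every MCAO array lay above every sham array, compared with 9.65% of all genes.

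Cdc20 had the largest mitosis difference at 7 days. It read 7.87, 6.85 and 7.76 on sham and 9.51, 9.26 and 8.68 on MCAO arrays (1.66 ± 0.52, adjusted p 0.644). Ccnd1 read 7.32, 7.99 and 7.58 on sham and 8.94, 9.83 and 9.15 on MCAO arrays (1.67 ± 0.73), and Cdkn1a read 8.59, 8.04 and 8.04 on sham and 9.51, 9.84 and 9.87 on MCAO arrays (1.52 ± 0.57). Neither overlapped between groups. Mki67 had 1.41 ± 0.66, Top2a 1.17 ± 0.62, Cdk1 1.06 ± 0.49, Ccnd2 0.69 ± 0.28, Mcm2 0.43 ± 0.34, Pcna 0.19 ± 0.45, Cdkn2c 0.44 ± 0.40 and Cdkn1b 0.12 ± 0.57. Ccnd1, Cdkn1a and each of these had an adjusted p of 1. The smallest mitosis values were those of Tpx2 (-0.12 ± 0.36) and Kif11 (0.01 ± 0.23). Of S phase genes Rrm2 (1.19 ± 0.61) and Cdt1 (0.93 ± 0.61) had the largest differences and E2f1 (-0.08 ± 0.20) the smallest.

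Mean mitosis log2 intensity at 7 days was 6.45, 5.75 and 6.27 on sham arrays and 7.37, 6.90 and 6.60 on MCAO arrays. The precursor marker means were 7.85, 7.55 and 7.86 on sham and 8.79, 9.02 and 8.98 on MCAO arrays, so they too did not overlap. Of the 9 markers C1ql1 was higher, by 1.81 ± 0.21 (adjusted p 6.21e-05), against 0.0254% of all genes. Neural progenitor markers (7.84, 7.43 and 7.80 on sham, 8.44, 8.04 and 7.91 on MCAO arrays), pericyte and smooth muscle markers (7.33, 7.09 and 7.16, and 7.53, 7.95 and 7.46) and the astrocyte markers (12.79, 12.88 and 12.74, and 12.96, 13.02 and 13.09) were also higher on every MCAO array, with none called. The part of these cell types in the 7-day values was not tested. Fitted on the 6 arrays of 7 days alone, Cdc20, Ccnb2, Mcm4, Ccnd1, Ccnd2 and Cdkn1a were higher, 6 of 50 against 1.29% of all genes.

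After LPS, Cdkn1a and Gins1 were the members that passed the test. These were 2 of 50 higher and 0 lower, against 2.37% of all genes higher and 0.744% lower. In the same 2 every LPS array lay above every saline array, against 1.88% of all genes. The mitosis genes had a median of 0.10, with 0 of 29 at an unadjusted p under 0.05, against 16.4% of all genes, and the S phase genes a median of 0.06. Over all genes the median was 0.07. Both groups were divided between the higher and the lower set of arrays. In the higher set the S phase means were 7.82, 8.10 and 8.32 on LPS arrays and 8.05 and 7.87 on saline arrays. In the lower set they were 7.14 and 7.07 on LPS arrays and 7.21 and 7.24 on saline arrays. The mitosis means overlapped between the sets.

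Cdkn1a read 7.58, 8.06, 8.55 and 7.95 on saline arrays and 12.74, 11.52, 10.26, 11.41 and 11.81 on LPS arrays. All LPS arrays were well above saline, and the difference of 3.51 ± 0.47 (11.4-fold, adjusted p 2.91e-05) was the largest of any member in the 4 comparisons on all arrays. Gins1, a subunit of the complex that activates the replicative helicase, read 6.73, 6.43, 6.34 and 6.19 on saline and 7.71, 7.41, 7.38, 7.22 and 7.99 on LPS arrays. The groups did not overlap (1.12 ± 0.22, 2.18-fold, adjusted p 0.00359). That call was lost when LPS and saline were fitted alone (adjusted p 0.104).

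Ccnd1 read 9.03, 7.09, 8.67 and 7.13 on saline and 10.95, 11.09, 8.47, 10.03 and 8.13 on LPS arrays. Both groups were scattered and overlapped (1.76 ± 0.60, adjusted p 0.118). Without LPS array 5 its difference was 2.16 (adjusted p 0.0422), which made 3 of 50 members higher against 2.65% of all genes. Without LPS array 3 it was 2.07 (adjusted p 0.0431), so either omission gave the call. On LPS array 5 Mcm4 read 5.36, against 9.61 to 9.94 on the other LPS arrays, and Cdkn1b 5.13, against 8.50 to 9.08. The second probe set of Mcm4 gave an LPS difference of 0.35 where the one used gave -0.48.

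Other values after LPS were small. Mki67 had -0.10 ± 0.54 (adjusted p 0.949), Top2a 0.04 ± 0.51 (0.981), Cdk1 -0.12 ± 0.41 (0.914), Pcna 0.60 ± 0.37 (0.454), Mcm2 0.24 ± 0.28 (0.724), Ccnd2 -0.07 ± 0.23 (0.921), Cdkn1b -0.64 ± 0.47 (0.536) and Cdkn2c -0.04 ± 0.33 (0.964). The Cdkn1b value came from LPS array 5: it read 8.74, 9.08, 8.50, 8.97 and 5.13 on LPS arrays and 9.07, 8.23, 8.82 and 8.80 on saline arrays. Mcm7 had the lowest S phase value, -0.57 ± 0.41 (adjusted p 0.525). It read 7.83 on LPS array 5 against 9.35 to 10.56 on the others, and without that array the difference was -0.12. The 3 other probe sets of Mcm7 gave 0.67, 0.22 and -0.88. Nusap1 had the highest mitosis value, 0.65 ± 0.42 (0.482). Birc5 (-0.26 ± 0.33, adjusted p 0.740) and Cks2, a Cdk subunit (-0.25 ± 0.46, 0.834), had the lowest. Of 19 p53 targets 3 were higher, against 2.37% of all genes. Fas was higher by 1.72 ± 0.37 (adjusted p 0.00707), Aen, an exonuclease of apoptosis, by 1.18 ± 0.26 (0.00765), and Phlda3 by 1.05 ± 0.23 (0.00952). Precursor markers were 7.54 to 7.86 on saline arrays, 8.48 and 8.56 on LPS arrays 2 and 3, and 7.72 to 7.85 on the other LPS arrays. Of 7 pericyte and smooth muscle markers Rgs5 was higher (1.98 ± 0.41, adjusted p 0.00602), and of 12 astrocyte markers Gfap (1.87 ± 0.40, 0.00747). Neutrophil and monocyte markers were 5.33 to 5.63 on saline and 5.55 to 6.40 on LPS arrays. The part of other cell types in the LPS results was not tested.

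Whether the MCAO effect differed between times was tested as a difference of differences. Between 3 days and 1 day 0 of 50 members passed on all arrays, against 0.00636% of all genes in either direction, and 32 of 50 were at an unadjusted p under 0.05, against 5.99% of all genes. The nearest was Hmmr, with 2.26 ± 0.48 (adjusted p 0.0733). Without array 3 of the 3-day groups 22 passed, all with the larger effect at 3 days, against 0.401% of all genes. They were 20 of 29 mitosis genes, with Cdk1 at 3.46 ± 0.53 (adjusted p 0.000890) and Hmmr at 3.13 ± 0.35 (6.75e-05), and the S phase genes Rrm2 and Tk1. Rrm2 had the largest, 4.52 ± 0.74 (adjusted p 0.00207). Cdt1, Ccnd1 and Cdkn1a were not among them. The omission was chosen from the cycle list means, so these calls are no independent test. All surgery arrays of 1 day were in the set with the higher 95th percentile. Arrays 1 and 2 of 3 days and all arrays of 7 days were in the lower one. In these comparisons a difference of effects by time cannot be told apart from one by set. Between 7 and 3 days and between 7 days and 1 day 0 of 50 passed, against 0 and 0.356% of all genes.

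Stroke and LPS at 1 day were compared in the same way, and 1 of 50 members differed. The effect on Cdt1 was larger after MCAO by 2.97 ± 0.71 (adjusted p 0.0308), against 0.693% of all genes with a higher and 0.699% with a lower value after MCAO. Cdt1 read 6.69, 8.07, 6.83 and 6.09 on saline arrays and 6.13, 6.86, 8.02, 5.55 and 5.67 on LPS arrays, with wide overlap (-0.47 ± 0.50). No member differed without MCAO array 1 or 4, sham array 1, 2 or 4, or saline array 2 or 3. Cdkn1a differed by -0.96 ± 0.66 between the treatments (adjusted p 0.606), and did not pass the test.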

How the data were processed

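RNA of sorted astrocytes, about 20 ng per sample, was amplified in repeated cycles and hybridised to Affymetrix mouse arrays, per the labels' protocols. The deposited intensities are linear whole numbers from 9 to 35553, 1 for each probe set on each array. RMA is the method that the submitters' processing notes name for them, and its version is not given in the sources used here. Raw scans were not used here, and the number of arrays limits the precision.

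Log2 was taken of the deposited intensities. Of 45037 probe sets 34945 carried 1 gene symbol in the platform annotation, and the one with the highest mean over 30 arrays stood for each gene. Genes at log2 5 or more on at least 3 arrays entered limma 3.58.1 (R 4.3.3), in 1 model of 8 group means (22 residual and 4.55 prior degrees of freedom). Contrasts compared MCAO with sham at 1, 3 and 7 days, LPS with saline at 1 day, and these effects with each other. P-values were 2-sided and adjusted by Benjamini-Hochberg over 15726 genes, with calls at an adjusted p under 0.05. SE is that of the fit. Non-overlap means that every array of one group lay above every array of the other. The code was tested on simulated data.

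Alternatives covered scaling, filters, choice of probe set, variance model, replicate blocks and omitted arrays. Arrays were also split into a higher and a lower set by the 95th percentile of log2 intensity (16 arrays from 11.88 to 12.15, 14 from 11.57 to 11.80), a choice made after seeing the data. Same-numbered arrays by the description field had deviations from their group means that correlated at 0.164 to 0.500 in all 4 pairs of 1-day surgery, and so counted as paired there. For numbers 3 and 5, however, the MCAO array correlated best with a sham array of another number. The labels do not state a pairing, and the main tests did not use it. LPS and saline shared 1 such number (0.312), too few to pair them, and in the other cases at least 1 pair was under 0.1.

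Members, gene lists and tests were chosen with earlier results of these data known. All measured members could be named. Full values were given to called members, to Mki67, Top2a, Cdk1, Pcna, Mcm2, Ccnd1, Ccnd2 and the Cdk inhibitors in every comparison, and to the 2 largest and 2 smallest differences of a role; of other lists, up to 3 called genes per comparison by size.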

Additional observations from a re-analysis of the deposited data

Results flagged for a closer look

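A gap test (Dixon, at the 95% level) of the highest and lowest array was run in the 132 groups of 4 or 5 arrays of 33 members. It marked 10, where chance alone marks about 1 in 20 groups. The ratio of the gap to the range was 0.859 for Cdc20, 0.932 for Ect2, 0.836 for Mcm2 and 0.837 for Top2a on saline array 1, which was the highest of its group in each. MCAO array 4 of 1 day was the highest for Cdc20 (0.889) and Top2a (0.754). Sham array 1 of 1 day was the lowest for Mcm4 (0.855) and Rrm2 (0.866). LPS array 5 was the lowest for Cdkn1b (0.854) and Mcm4 (0.929).

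The effect on Cdt1 at 1 day differed between stroke and LPS by 2.97 on the log2 scale in the test of the difference itself (SE 0.71, adjusted p 0.0308 with limma).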

How the results depend on the processing

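At 1 day after MCAO the count of 3 members was 15 with array weights and 13 with the compared groups alone, and 2 to 3 with single arrays left out. At 3 days the count of 9 was 42 with array weights, 0 with the compared groups alone, 2 at an adjusted p under 0.01, 0 to 33 with single arrays left out and 37 without array 3 of both groups. At 7 days the count of 0 was 25 with array weights and 6 with the compared groups alone. After LPS the count of 2 was 5 with array weights, 1 with the compared groups alone, 1 in the higher set of arrays alone and 2 to 3 with single arrays left out. For the 3-day minus 1-day effect the count of 0 was 31 with array weights, 1 with the mean of probe sets, 1 with the set of arrays as a covariate, 22 without array 3 of both 3-day groups and 0 to 11 with single arrays left out. For 7 minus 3 days it was 6 with array weights, 1 without array 3 of both 3-day groups and 0 to 1 with single arrays left out, and for 7 days minus 1 day 23 with array weights. For MCAO minus LPS the count of 1 was 2 with array weights, 0 at an adjusted p under 0.01 and 0 to 1 with single arrays left out. The replicate block by title number, which did not pair the arrays (correlations from -0.396 to 0.425), gave 0 for MCAO minus LPS and 1 at 3 days. That 1 was the S phase gene Mcm4 (0.92, adjusted p 0.0438), and none of the 9 mitosis genes kept its call. In the block by description number LPS and saline shared 1 number, so their comparison rested on 1 array of each (Gins1 0.99). Its counts, and those of MCAO minus LPS under that block, are therefore not given. Tpx2 at 3 days was 0.86 with the mean of its probe sets (adjusted p 0.044), opposite in sign to the probe set used. Apart from Tpx2, no single-member value called under either setting changed sign. Quantile normalisation and median centring moved the median of all genes by less than 0.1 in each comparison. The causes of these shifts were not tested. Apart from the shares given with the results above, the share of all genes called under these settings was not taken. Member counts without such a share, as with array weights, cannot be read as particular to cell cycle genes. The number of arrays, 3 per group at 3 and 7 days, limits what could be called.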
